A study of Homo sapiens with 26 samples.

Results

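Gene expression was followed over the 192 h between the 2 harvests of TF-1 cells that had received azacytidine (Aza), by setting Aza libraries at 264 h against Aza libraries at 72 h within each clone. The comparison uses 8 of the 26 samples of the series, namely every Aza library of batch 1. TF-1 is an established human erythroleukemia line that grows in GM-CSF. Clones F4 and A12 are labelled TET2 -/- (KO) and clones A7 and C4 TET2 +/+ (WT). All clones had received 200 nM Aza, dissolved in DMSO, on 3 consecutive days, and both harvest times count from the first dose. Reference libraries received DMSO alone: 3 at 72 h (A12, A7 and C4) and 4 at 264 h (one per clone). The F4 library in DMSO at 72 h failed the submitters' quality control and was left out. Each genotype is represented by 2 clones of one line. The fits hold a term for each clone, so p-values measure how differences within a clone varied across these clones and their cultures.

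Azacytidine is built into RNA and DNA, traps DNA methyltransferases on DNA and thereby lowers methylation as cells divide. Once the drug is gone, the maintenance enzyme can methylate DNA again, so each gene may return to its earlier level, hold its new level or change later. TF-1 cells stand at a progenitor stage and can express genes of red cells, of megakaryocytes and of mast cells, basophils and eosinophils.

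Total counts ran from 25428382 to 28248529 in the Aza libraries, and 3 counts, the floor used here, corresponded to 0.106 to 0.118 CPM, the count scaled to library size. Libraries before treatment entered no fit: the difference between the WT clones there correlated at -0.47 to -0.41 with the same difference at later harvests over 3000 variable genes (KO clones 0.50 to 0.55). The stem cell marker CD34 stood at 368 ± 93.3 CPM (SD, n = 4) at 72 h in Aza. Summed hemoglobin genes reached 209 to 665 CPM there, whereas the 14 lymphoid markers summed to 11.1 to 51.8 CPM and the B cell marker MS4A1 was at 0 in all 8 Aza libraries. TET2 RNA was present in every Aza library (22.5 to 41.6 CPM), so its count does not check the genotype labels.

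From 72 h to 264 h the Aza cells regained RPTOR, CUX1, HDAC4 and other long genes that Aza cells had held low at 72 h. They lost RD3, CEBPE, SLAMF9 and other genes that Aza cells had held high. They gained transcripts of the eosinophil genes CLC, EPX and PRG3 and of globin genes. Of 16127 genes tested, 6873 (42.6%) passed an adjusted p of 0.05 in edgeR's quasi-likelihood test with a term for each clone. Of these, 3383 were higher at 264 h (21% of all genes tested) and 3490 lower (21.6%). At least 2-fold changes were fewer, 206 higher and 341 lower, which is 3.39% of the genes tested. The lowest library at 264 h lay above the highest at 72 h for 1946 genes (12.1%), and the reverse held for 1943 (12%). Without the clone term 4204 genes were called.

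RPTOR encodes raptor, the subunit that brings substrates to the growth kinase complex mTORC1. Its level in Aza at 72 h was 12.0, 13.9, 13.9 and 13.1 CPM in F4, A12, A7 and C4, the order used for the clones throughout. At 264 h it was 67.8, 70.8, 66.8 and 66.3 CPM, so the groups did not overlap. The log2 change was 2.37 (SE 0.06, edgeR adjusted p = 2.33e-13). In DMSO it stood at 59.3 ± 4.35 CPM at 72 h (n = 3) and 69.3 ± 3.22 CPM at 264 h (n = 4). Thus the 264 h Aza level lay within the range of DMSO at that time (64.6 to 72.0 CPM), with a fitted difference of -0.02 (adjusted p = 0.886).

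Other leading rises had the same form. CUX1, a homeobox transcription factor gene, went from 20.1 ± 2.59 to 75.7 ± 6.87 CPM (log2 1.92, SE 0.06). HDAC4, a class II histone deacetylase, went from 5.6 ± 0.54 to 21.8 ± 1.93 CPM (log2 1.97, SE 0.08). MAD1L1, which encodes the spindle checkpoint protein MAD1, went from 14.2 ± 1.94 to 51.7 ± 5.00 CPM, and the collagen gene COL23A1 from 21.0 ± 4.34 to 87.7 ± 18.4 CPM. The adjusted p was 2.28e-12, 3.67e-11, 9.26e-12 and 7.88e-07 for these 4 genes in edgeR, and none of the 4 overlapped between times. CAMK1D, a calmodulin-dependent kinase gene, and the lincRNA gene MIR3667HG rose by log2 1.67 and 1.74. The integrin gene ITGA8 rose by 2.39. DIO2, which activates thyroid hormone, rose in every clone, by log2 2.83, 3.36, 1.26 and 2.00, but its groups overlapped (11.8 CPM in A7 at 264 h against 12.8 CPM in A12 at 72 h). It was still below DMSO at 264 h (log2 -0.95, adjusted p = 0.0423), a call that was lost without any one of the 4 clones (adjusted p 0.0787 to 0.258), and its rise was not called without C4 (adjusted p = 0.0595).

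Of the leading falls, RD3, SLAMF9, TAC3, ENC1 and GBP4 were not called against DMSO at 264 h. RD3, a photoreceptor guanylate cyclase regulator, was at 15.6, 9.36, 11.5 and 11.3 CPM in Aza at 72 h and at 2.67, 1.42, 1.88 and 1.01 CPM at 264 h. All clones therefore fell and the groups were separate (log2 -2.78, SE 0.14, adjusted p = 4.08e-10). DMSO libraries at 264 h held 1.69 ± 0.66 CPM. SLAMF9, an immune cell receptor of the SLAM family, fell from 6.82 ± 1.05 to 1.25 ± 0.45 CPM (DMSO at 264 h 1.15 ± 0.15). TAC3, the neurokinin B precursor, fell from 6.41 ± 0.94 to 1.49 ± 0.22 CPM (DMSO 1.35 ± 0.12). ENC1, an actin-binding protein gene, fell from 165 ± 44.9 to 32.6 ± 7.08 CPM (DMSO 42.6 ± 10.2). GBP4, an interferon-inducible GTPase gene, fell from 100.1 ± 44.2 to 26.6 ± 11.4 CPM (DMSO 19.5 to 42.6). The other large falls with at least 5 CPM were those of ADAMTS4, CDH24, SLC7A8, ACE, IL1RL1 and TRIM29, with log2 changes of -2.23 to -1.88. IL1RL1 and TRIM29 were still called above DMSO at 264 h, by log2 1.04 and 0.81 (adjusted p = 0.0358 and 0.00792). The call was lost for IL1RL1 without F4, A12 or A7 (adjusted p 0.0787 to 0.109) and for TRIM29 without C4 (0.107).

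CEBPE, a transcription factor gene of late granulocyte and eosinophil development, fell but stayed above DMSO. It was at 8.19, 19.3, 11.4 and 6.59 CPM in Aza at 72 h and at 1.13, 3.38, 2.09 and 0.66 CPM at 264 h. DMSO libraries at 264 h held 0.35, 1.17, 0.47 and 0.15 CPM, so the clones had the same order in all these groups and each Aza library lay above the DMSO library of its clone. The log2 difference from DMSO was 4.32 at 72 h and 1.77 at 264 h (adjusted p = 9.26e-17 and 8.48e-06).

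**Figure D1:**
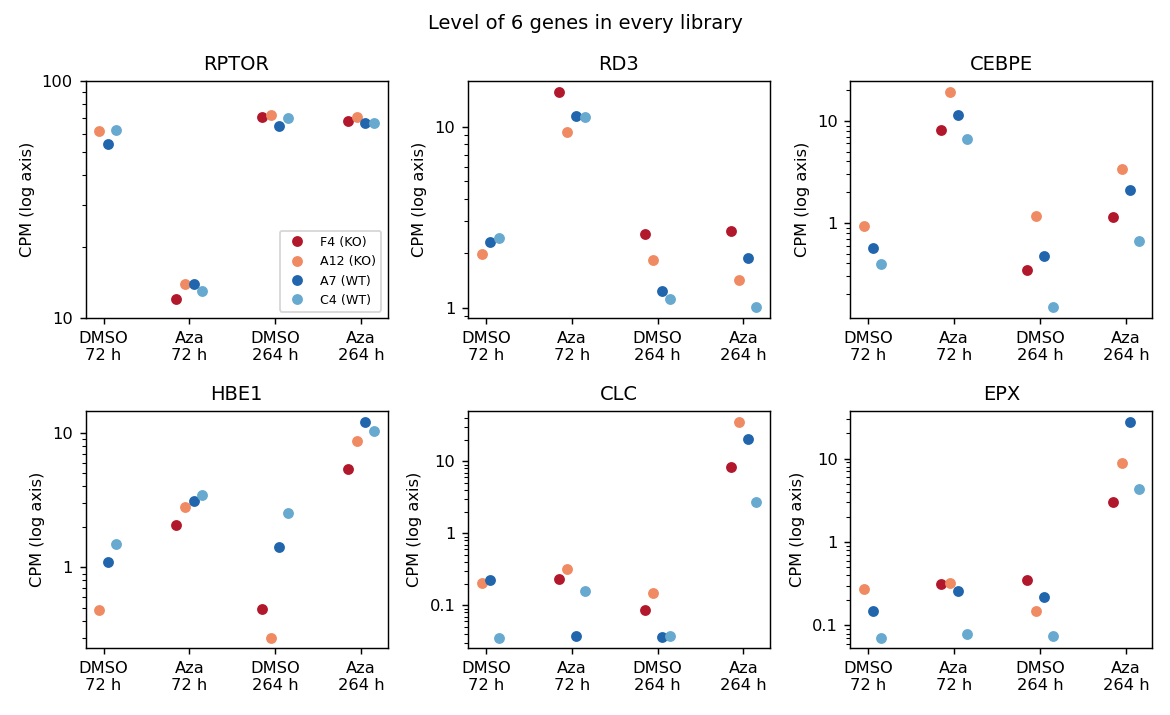
Level of 6 genes in each library, as CPM on a log axis, for DMSO and Aza at 72 h and 264 h, with a point per clone (F4 and A12 KO, A7 and C4 WT) and no F4 point in DMSO at 72 h. RPTOR and RD3 returned to the DMSO level, CEBPE stayed between, HBE1 rose further, and CLC and EPX were high in Aza at 264 h (CLC 2.75 to 35.3 CPM).

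To sort what reverted, stayed or appeared late, Aza was set against DMSO at each time in a fit of 15 libraries (17395 genes tested, clone and condition terms). Aza differed from DMSO in 7031 genes at 72 h (40.4%; 20.4% higher and 20% lower) and in 688 at 264 h (3.96%; 2.15% higher and 1.81% lower). The call with at least a 2-fold difference fell from 830 genes (4.77%) to 76 (0.437%), of which 71 were higher in Aza. The count at 264 h rests on the pairing by clone and on WT libraries: it was 11 without the clone term, 264 without A7, 318 without C4, and 74 with the failed F4 library included. The 2 times share no library, and the change of the difference between them was tested as a term of its own, with 4520 genes called (26%; 3.49% by at least 2-fold).

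Of the 830 genes with a called difference of at least 2-fold at 72 h, 448 reverted, which is 54% of them and 2.58% of all genes tested. These were 252 that had been higher and 196 that had been lower in Aza. The name reverted requires a called change of the difference back toward DMSO with less than 25% of it left. Another 49 reverted in part, with 25% or more left. In 42 genes (5.06%) the difference was called at both times, in the same direction, with no called change between them, and these are named kept. The remaining 291 could not be placed, among them PRG3, whose difference grew. Kept genes were mostly higher in Aza (39 of 42), whereas 319 of the 830 had been lower. Responders were chosen for a large 72 h difference, which can overstate the later shrinkage. Genes chosen in the WT clones alone were also read in KO clone A12: the median log2 difference went from 1.30 to 0.10 for 386 higher genes and from -0.99 to -0.06 for 281 lower genes.

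**Figure D2:**
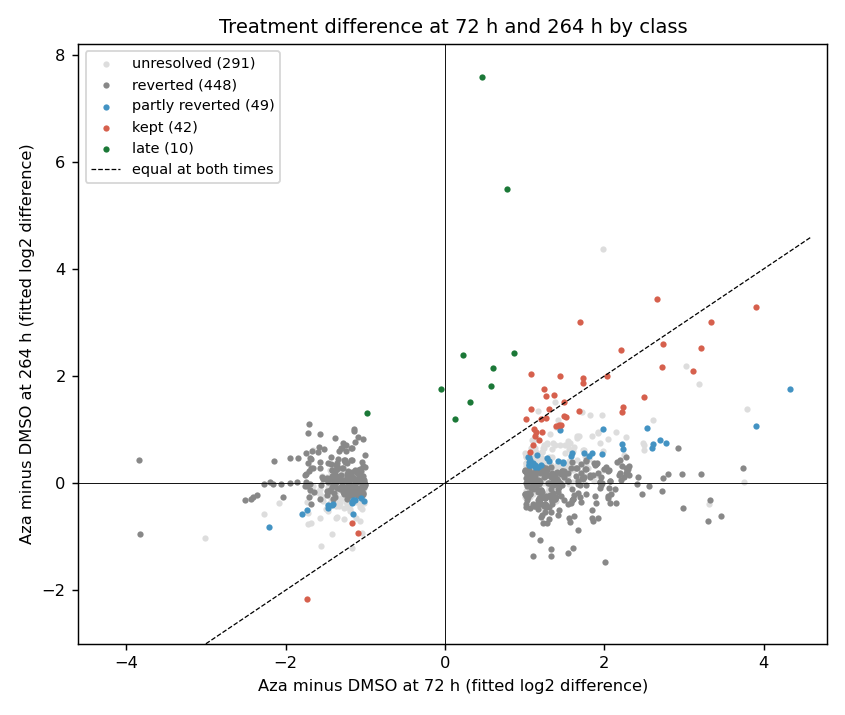
Fitted log2 difference between Aza and DMSO at 72 h (horizontal) and 264 h (vertical), with a point per gene, coloured by class, and a dashed line where both are equal. The 448 reverted genes lie around 0 on the vertical axis. The 42 kept genes had no called change of the difference (median share left 0.87), but not all lie near the dashed line. The 10 late genes lie above that line with no called difference at 72 h. The light gray point at a height of 4.38 is PRG3.

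The eosinophil genes CLC and EPX were among the late genes. Late genes, 10 in all (0.0575%), had no called difference at 72 h, at least a 2-fold called difference at 264 h and a called change between them. CLC encodes galectin-10, the protein of Charcot-Leyden crystals in eosinophils and basophils. It had 6, 9, 1 and 4 counts in Aza at 72 h and 228, 920, 595 and 71 counts at 264 h, or 8.34, 35.3, 20.7 and 2.75 CPM. DMSO libraries at 264 h had 3, 4, 1 and 1 counts. Every Aza library at 264 h thus lay far above all others, while the clones differed among themselves. The fitted log2 change from 72 h was 6.45 (SE 0.29, edgeR adjusted p = 2.44e-08), a size that depends on how such low counts are handled.

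EPX, the eosinophil peroxidase gene, went from 8, 9, 7 and 2 counts to 82, 230, 787 and 111 counts (3.00, 8.83, 27.4 and 4.29 CPM at 264 h). No Aza library at 264 h overlapped those at 72 h (log2 5.38, SE 0.33, adjusted p = 4.64e-07). DMSO at 264 h held 0.20 ± 0.12 CPM. A7 was highest for EPX and A12 for CLC. The change of the EPX difference between times, on which its class rests, was not called without A12 or without C4 (adjusted p = 0.304 and 0.184), although the difference at 264 h was.

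PRG3 and PRG2 encode eosinophil major basic proteins. PRG3 rose from 1.29, 2.49, 1.27 and 0.24 CPM to 3.44, 20.2, 9.19 and 2.44 CPM. Each clone rose, but the groups overlapped because A12 at 72 h exceeded C4 at 264 h (log2 2.66, SE 0.22, adjusted p = 1.55e-06). PRG3 was already above DMSO at 72 h (log2 1.99) and the difference was 4.38 at 264 h. This growth was called (log2 2.39), though not without A12 (edgeR adjusted p = 0.0594). No class covers a 72 h difference that grows, so PRG3 was among the genes that could not be placed. PRG2 was raised at 72 h and kept: its Aza level was 1.76 ± 1.37 CPM at 72 h and 1.78 ± 1.26 CPM at 264 h, with 0.27 ± 0.11 CPM in DMSO at 264 h. Its difference at 264 h (log2 2.59) was not called without A7 (adjusted p = 0.0521). IL5RA, the receptor chain for the eosinophil cytokine interleukin 5, stood above DMSO at 264 h by log2 1.17 (adjusted p = 0.00339) and its change between Aza times was 0.42 (adjusted p = 0.0938).

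Among all mast cell, basophil and eosinophil markers the direction was mixed. Of 20 tested, 6 rose and 7 fell between the Aza times (median log2 -0.02, against 0.00 over all genes). Among all genes 21% rose and 21.6% fell. The eosinophil granule genes RNASE2 and RNASE3 did not pass the filter on low counts and were not tested. KIT, the stem cell factor receptor of mast cells, fell by log2 -1.20 to below its DMSO mean (16.2 ± 3.47 against 19.3 ± 5.31 CPM). The interleukin 33 receptor gene IL1RL1 fell by -1.90, and the eotaxin receptor gene CCR3 by -1.55. HDC, which makes histamine, fell by -1.06 and remained above DMSO (log2 1.6 at 264 h; not called without A7, adjusted p = 0.0578). TPSB2 (tryptase), FCER1A (IgE receptor) and GATA2 rose by 0.61, 0.33 and 0.31. The summed level of the 23 matched markers was 544 to 800 CPM at 72 h and 609 to 1055 CPM at 264 h in Aza, and 652 to 1011 CPM in DMSO at 264 h. In these bulk samples, more cells of a type and more RNA per cell cannot be told apart.

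The other 8 late genes were HBG2, TCN1, SLC4A1, HBB, ACSBG1, ALDH3B1, EML2-AS1 and BIRC3. SLC4A1, the red cell anion exchanger band 3, was at 0.39, 0.61, 1.79 and 2.26 CPM at 72 h and at 1.57, 0.42, 4.84 and 6.69 CPM at 264 h, so A12 did not share the rise. ACSBG1, an acyl-CoA synthetase gene, went from 1.10, 1.57, 1.08 and 3.85 to 2.12, 2.96, 9.68 and 10.1 CPM (log2 1.67, adjusted p = 0.00918). BIRC3, an inhibitor of apoptosis, went from 1.25 ± 0.11 to 2.31 ± 0.74 CPM with no overlap. TCN1, a vitamin B12 binding protein of granulocytes, had 25 counts in all at 72 h and 73 at 264 h in Aza, too few to enter the fit of the Aza libraries. For ALDH3B1 and EML2-AS1 the late difference came with a fall in DMSO: ALDH3B1 stayed at 1.18 ± 0.12 and 1.30 ± 0.31 CPM in Aza, while DMSO went from 0.99 ± 0.22 to 0.45 ± 0.10 CPM (log2 -1.07, adjusted p = 0.0177). EML2-AS1 stood above DMSO at 264 h by log2 1.305, and the change of its difference between times was larger, at 2.284. Its 264 h call was lost without any one clone (edgeR adjusted p 0.0991 to 0.19). EML2-AS1 is antisense to EML2, and the counting command sets no strand option, so their reads cannot be told apart. Without F4, A12, A7 or C4, respectively 6, 6, 5 and 3 of the 10 late genes were late again. CLC was among them each time, and EML2-AS1 and HBG2 were late in none of these fits.

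Promoter sequence was described for genes with an entry in the RefSeq table of the GRCh38.p14 build, which covers 250 bases before and 50 after the start. Among 13099 coding genes tested, 10597 had an entry, with a median of 26 CG pairs, the sites of DNA methylation. The 5 late coding genes with an entry had a median of 3 CG pairs, and 4 of the 5 had 5 or fewer, against 8.61% of all. That share was raised in other classes too. It was 26.5% for reverted genes that had been higher in Aza and 19.8% for those that had been lower. It was 21.7% for kept higher genes and 25.8% for higher genes that could not be placed. The 151 reverted genes that had been higher in Aza had a median of 14 CG pairs, the 86 reverted genes that had been lower 20.5, and the 23 kept genes that were higher 9. Hexamers bound by GATA factors were searched on both strands, namely AGATAA and its variant AGATAG, together with TGATAA and its variant TGATAG. A match lay in 2 of 5 late genes, in 39.1% of kept genes that were higher in Aza (9 of 23) and in none of the 2 kept lower genes with an entry. The share was 24.5% for reverted genes that had been higher, 20.9% for those that had been lower and 15.4% for all. A match is a description of letters and shows no binding. The 250 bases before the start are shown for the 2 eosinophil genes with an entry, for CEBPE, the partly reverted gene with the largest 72 h difference, and for RPTOR, with CG pairs in capitals. They lie at chr19:39738030-39738279 (CLC, minus strand), chr11:57381151-57381400 (PRG3, minus), chr14:23119256-23119505 (CEBPE, minus) and chr17:80544588-80544837 (RPTOR, plus).
CLC: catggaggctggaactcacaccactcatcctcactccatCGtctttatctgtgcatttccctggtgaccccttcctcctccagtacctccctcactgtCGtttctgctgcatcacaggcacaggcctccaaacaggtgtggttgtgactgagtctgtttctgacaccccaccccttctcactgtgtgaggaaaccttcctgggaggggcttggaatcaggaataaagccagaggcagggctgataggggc
PRG3: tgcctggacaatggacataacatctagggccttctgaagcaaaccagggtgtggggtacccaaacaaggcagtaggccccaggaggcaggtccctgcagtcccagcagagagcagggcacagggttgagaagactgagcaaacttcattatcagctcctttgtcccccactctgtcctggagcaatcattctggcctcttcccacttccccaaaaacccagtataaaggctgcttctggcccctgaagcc
CEBPE: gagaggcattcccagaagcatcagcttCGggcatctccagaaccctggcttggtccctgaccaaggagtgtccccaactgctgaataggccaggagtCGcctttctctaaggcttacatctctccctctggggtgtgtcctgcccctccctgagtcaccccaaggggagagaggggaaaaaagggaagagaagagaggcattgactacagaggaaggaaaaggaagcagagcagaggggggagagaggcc
RPTOR: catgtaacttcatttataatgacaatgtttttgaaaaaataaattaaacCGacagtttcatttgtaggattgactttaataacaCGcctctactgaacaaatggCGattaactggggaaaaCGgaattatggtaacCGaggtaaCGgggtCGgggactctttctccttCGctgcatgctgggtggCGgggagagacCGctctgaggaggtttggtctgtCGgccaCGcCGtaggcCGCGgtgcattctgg
These windows hold 2, 0, 2 and 15 CG pairs. The GATA hexamers occur 2 times in the CLC window and 1 time in that of PRG3, and do not occur in those of CEBPE and RPTOR.

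Globin genes rose after 72 h, when most other Aza differences had shrunk. Of the 10 genes of the hemoglobin list that were tested (globin chains and AHSP), 8 rose and none fell between the Aza times, with a median log2 of 0.79, against 21% and 21.6% of all genes. Against DMSO, 3 of 10 were called higher at 72 h (HBE1, HBZ and AHSP) and 9 of 10 at 264 h, and none was called between the DMSO times. Among all genes 20.4% were called higher at 72 h and 2.15% at 264 h. The change of the difference between the times was called for only 2 of the 10, HBB and HBG2. The median difference from DMSO was 0.77 at 72 h and 1.68 at 264 h.

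HBE1, the embryonic epsilon-globin gene, was at 2.08, 2.81, 3.09 and 3.45 CPM in Aza at 72 h and at 5.41, 8.68, 12.0 and 10.3 CPM at 264 h. The groups were separate (log2 1.66, SE 0.12, edgeR adjusted p = 2.33e-08). DMSO libraries at 264 h held 0.49, 0.30, 1.42 and 2.52 CPM. HBZ, the embryonic zeta-globin gene, went from 6.04, 6.69, 16.3 and 20.0 to 8.45, 8.94, 31.9 and 35.8 CPM. Each clone rose, with the KO clones below the WT clones at both times (log2 0.74, SE 0.09, adjusted p = 9.07e-06).

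The fetal gene HBG2 went from 85.1, 57.3, 122 and 318 CPM to 151, 145, 430 and 682 CPM. The change was log2 1.28 (SE 0.19, adjusted p = 0.00873), and 2.43 against DMSO at 264 h. HBB, the adult beta-globin gene, went from 17.8, 14.0, 38.9 and 41.2 to 41.4, 27.5, 165 and 114 CPM (log2 1.5, SE 0.21, adjusted p = 0.00769). HBD, the minor adult chain, rose from 5.16 ± 0.46 to 15.4 ± 7.11 CPM, with its groups separate. HBG1, HBA1 and HBQ1 rose by 0.84, 0.40 and 0.30, whereas HBA2 changed by 0.67 (adjusted p = 0.0513) and AHSP, the alpha-globin chaperone, by -0.38 (adjusted p = 0.0882). Within pairs of near-identical genes (HBA1 with HBA2, HBG1 with HBG2) reads may be assigned to either, and the annotated HBE1 and HBG2 genes overlap their neighbours.

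Single clones mattered for several of these calls. The late class of HBG2 was lost without any one clone (adjusted p of the change of the difference 0.0708 to 0.187), and that of HBB without F4, A7 or C4 (0.0813 to 0.27). The change between Aza times was not called for HBG2 without A12 (adjusted p = 0.0635), for HBD without C4 (0.0573) and for HBA1 without A12 or A7 (0.072 and 0.126). The difference at 264 h was not called without A7 for HBA1, HBA2, HBG1 and HBG2 (adjusted p 0.0535 to 0.27), without C4 for HBA2, HBB and HBD (0.0521 to 0.0812), without F4 for HBA2 (0.127) or without A12 for HBA1 (0.11). The log2 values moved little, for example from 2.43 to 2.42 for HBG2 without A7.

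**Figure D3:**
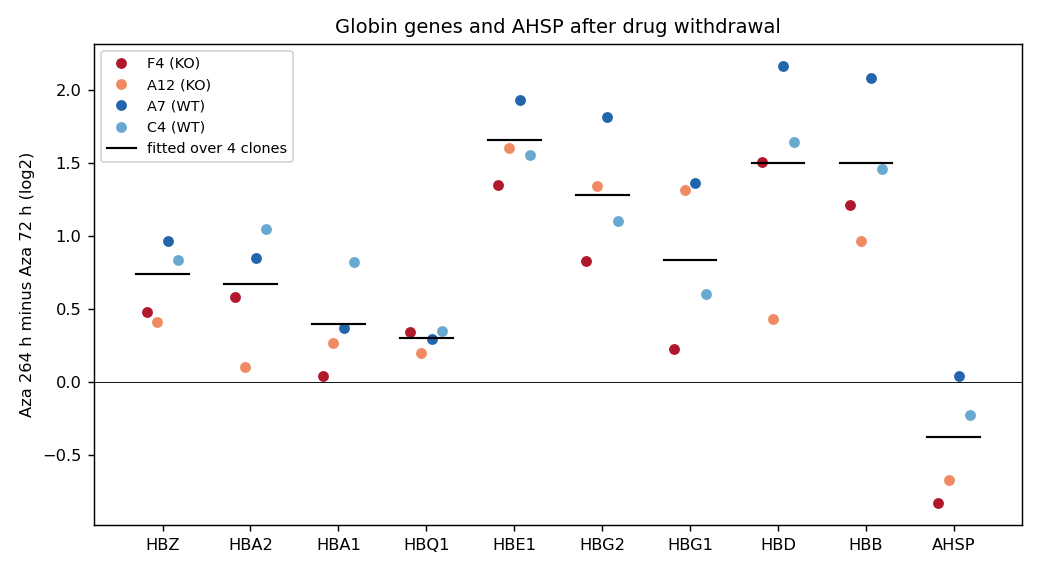
Log2 change between Aza at 72 h and at 264 h for 9 globin genes and AHSP, with a point per clone and a bar for the value fitted over the 4 clones. All clones lie above 0 for the globin genes, with a fitted range of 0.30 to 1.66, and AHSP lies at -0.38.

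The other red cell genes did not move with the globins as a group between the Aza times. In the heme and iron list 4 of 17 rose and 6 fell, beside 21% and 21.6% of all genes tested. ALAS1, the housekeeping first enzyme of heme synthesis, rose from 60.1 ± 7.25 to 113.6 ± 33.0 CPM. ALAS2, its erythroid counterpart, went from 7.49, 8.72, 16.9 and 32.9 to 9.94, 8.18, 34.7 and 49.8 CPM (log2 0.57, adjusted p = 0.0294, and 0.11 without C4). Against DMSO at 72 h, 13 of the 17 were called higher and none lower, beside 20.4% and 20% of all genes. At 264 h, 11 of the 17 were called higher and none lower, beside 2.15% and 1.81% of all genes.

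In the red cell membrane list 7 of 23 rose and 10 fell, beside 21% and 21.6% of all genes tested. Against DMSO, 15 of the 23 were called higher and 3 lower at 72 h, and 10 higher and 1 lower at 264 h. Among all genes 20.4% were called higher and 20% lower at 72 h, and 2.15% and 1.81% at 264 h. The ankyrin gene ANK1 rose by log2 0.81, while EPB42 (protein 4.2), GYPB (glycophorin B) and AQP1 (a water channel) fell by -1.69, -1.43 and -1.61. Among erythroid regulators 6 of 20 rose and 8 fell. Against DMSO, 12 of the 20 were called higher and 5 lower at 72 h, and 6 higher and none lower at 264 h. GATA1 fell from 124 ± 9.03 to 105.4 ± 10.4 CPM (log2 -0.23, adjusted p = 0.000442) and stayed above DMSO by 0.27. NFE2 and GFI1B fell by -0.64 and -0.81, and the corepressor gene CBFA2T3 rose by 1.27 to its DMSO level (120 against 115 CPM). KLF1 and TAL1 fell by -0.43 and -0.56.

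Kept genes came from several roles, and the name does not mean that the Aza level held. Between the Aza times HBE1 rose and HDC fell. Red cell genes among the 42 were HBE1, HBZ, AHSP, ALAS2, PKLR (red cell pyruvate kinase), SPTB, ADD2 and DMTN (membrane skeleton). PKLR stood at 7.77 ± 5.21 CPM at 72 h and 5.20 ± 3.84 CPM at 264 h in Aza, against 1.19 ± 1.09 CPM in DMSO. HDC, PRG2 and ENPP3 were kept genes of the mast cell, basophil and eosinophil list. The p53 target and antiproliferative gene BTG2 (log2 1.40 and 1.06) and the histone gene H2BC12 (1.13 and 0.88) were kept too. ATP1B2, a sodium pump subunit, and MGAT3, a glycosyltransferase, stood above DMSO by log2 1.44 and 1.5 at 72 h and by 1.09 and 1.52 at 264 h. The 264 h call was lost for MGAT3 without A12 (adjusted p = 0.0787) and for SPTB without C4 (0.197). The 3 kept lower genes were FLVCR2, a membrane transporter gene (log2 -1.10 and -0.93), PRTG (-1.17 and -0.75, the latter not called without F4, adjusted p = 0.156) and a gene with no symbol. The number kept was 25 without A7, and 24 of the 42 were kept in that fit.

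Markers of other blood fates fell back. Of 12 granulocyte and monocyte markers tested, 8 fell and 3 rose (median log2 -0.56), beside 21.6% and 21% of all genes tested. CSF1R, the macrophage growth factor receptor, fell from 2.75 ± 1.49 to 0.81 ± 0.26 CPM, and MPO and CSF3R fell by -0.89 and -0.94. ITGAM rose by 0.90. Only CEBPE of 13 was called against DMSO at 264 h, where 10 of 13 had been called at 72 h. The shares of all genes were 3.96% at 264 h and 40.4% at 72 h. The summed level of the 21 matched markers was 185 to 226 CPM at 72 h and 222 to 231 CPM at 264 h in Aza. Of 12 megakaryocyte markers 8 fell and 1 rose (median -0.43). The platelet integrin gene ITGB3 fell from 41.2, 35.9, 27.7 and 26.7 to 13.9, 15.8, 8.25 and 11.4 CPM. It ended below DMSO (log2 -0.31, adjusted p = 0.0331), a call lost without any one clone (adjusted p 0.0639 to 0.125), and was the single reverted gene called on the other side of DMSO. The megakaryocyte beta-tubulin gene TUBB1 was the riser (log2 0.65). None of 6 lymphoid markers was called between Aza times, and none of 7 between Aza and DMSO at 264 h.

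Lists for stress and growth held more fallers than risers, where 21.6% of all genes tested fell and 21% rose. In the list for integrated stress, unfolded protein and heat shock responses 16 of 21 fell and none rose (median log2 -0.31). Between the DMSO times 5 of the 21 fell and 1 rose (median -0.11), beside 3.96% and 3.87% of all genes. The change of the difference was called lower for 10 of 21, beside 12.7% of all genes. The stress transcription factor gene ATF3 fell from 4.42 ± 0.96 to 1.34 ± 0.26 CPM, and PPP1R15A, which ends the integrated stress response, from 111 ± 24.6 to 67.9 ± 12.9 CPM. Of 27 p53 targets 12 fell and 2 rose. The cell cycle inhibitor gene CDKN1A fell by -0.60 and the proapoptotic BBC3 by -0.67. In cholesterol synthesis 14 of 23 fell and 2 rose. HMGCS1, an early enzyme, fell from 435 ± 82.3 to 257 ± 50.4 CPM (DMSO at 264 h 269 CPM), and SQLE, a later one, from 321 ± 29.1 to 197 ± 19.4 CPM.

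In the G1/S list 17 of 28 genes fell and 1 rose, and in the G2/M list 12 of 26 fell and 7 rose. The G2/M list also had 6 fallers and 2 risers between the DMSO times, and its median against DMSO at 72 h was 0.01. CDC6, which loads the replicative helicase, fell from 103 ± 28.8 to 64.3 ± 15.8 CPM, and E2F1 from 42.1 ± 5.19 to 26.2 ± 2.29 CPM. The polymerase gene POLA1, 1 of the G1/S list, was the riser (log2 0.47). None of the G2/M genes and 2 of the G1/S genes differed from DMSO at 264 h, beside 3.96% of all genes. Among interferon response genes 10 of 29 fell and 5 rose, beside 21.6% and 21% of all genes tested. OAS3 and IRF7 fell by -1.77 and -0.95 and stood within log2 0.12 and 0.09 of DMSO at 264 h.

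Antigen presentation genes ended lower. Of 20 tested 13 fell and 1 rose between the Aza times (median log2 -0.33), and 5 were below DMSO at 264 h with none above. Among all genes 21.6% fell and 21% rose, and 1.81% were below and 2.15% above DMSO at 264 h. The class II genes HLA-DPA1, HLA-DPB1, HLA-DQA1 and HLA-DRB1 fell by -0.95, -0.71, -1.18 and -0.70. HLA-DPA1 also fell with time in DMSO, by -0.37 (adjusted p = 0.000212), and stood below DMSO at 264 h by -0.31, a call lost without A7 (adjusted p = 0.0605). Protein-coding transcripts of the mitochondrial genome fell in 11 of 13 cases in Aza (median -0.27) and in 8 of 13 cases in DMSO (-0.19). In DMSO 3.96% of all genes fell. The change of the difference from DMSO was called lower for 2 of the 13, beside 12.7% of all genes. MT-CO1, a subunit of respiratory complex IV, went from 16470 ± 1300 to 12750 ± 362 CPM in Aza. The change of its difference was log2 -0.187, a call lost without A12 or A7 (edgeR adjusted p 0.0762 and 0.333).

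Genes of the methylation machinery moved by small amounts. Of 15 tested 6 rose and 4 fell, beside 21% and 21.6% of all genes tested. DNMT1, the maintenance methyltransferase, went from 440 ± 10.8 to 527 ± 26.9 CPM, with its groups separate (log2 0.26, SE 0.04, adjusted p = 3.96e-05). It also rose in DMSO, by 0.17 (adjusted p = 0.00188), and the 2 rises were not distinguished (difference 0.09, adjusted p = 0.136). DNMT3B, a de novo enzyme, had been above DMSO at 72 h by 0.53 and fell from 109 ± 12.6 to 85.8 ± 9.42 CPM, against 85.1 ± 4.63 CPM in DMSO. TET1 rose by 0.68 to 19.5 ± 2.39 CPM, near its DMSO mean of 20.7 CPM. None of 8 cancer-testis genes was called between Aza times. In the germline list 2 of 7 fell, led by TEX14 (log2 -2.37), and none of 8 was called against DMSO at 264 h. In the list of mTOR complex subunits and regulators 5 of 12 rose and 1 fell. In the stem and progenitor list 1 of 9 rose and 4 fell (median log2 -0.35). The remaining lists, shown in the plot of lists, held both risers and fallers.

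**Figure D4:**
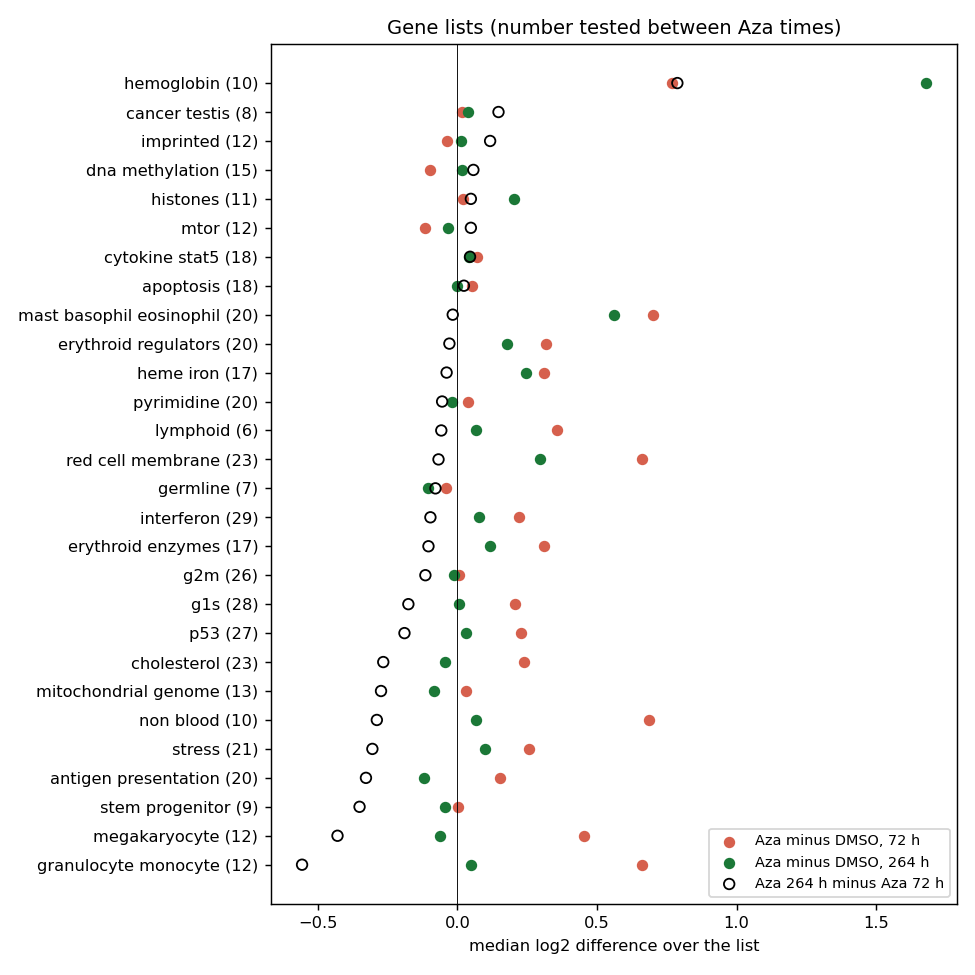
Median log2 difference over each of 28 gene lists for Aza against DMSO at 72 h (red), Aza against DMSO at 264 h (green) and Aza at 264 h against Aza at 72 h (open), with the number of genes tested in brackets. Most green points lie near 0, and the hemoglobin list lies at 1.68.

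Risers had a longer median gene span than fallers, with overlap, a grouping chosen after the values were seen. Span here is the annotated distance from a gene's first to its last base in the deposited table (hg19). Among 12673 coding genes tested, the median span was 31.5 kb. It was 77.5 kb for the 2938 called higher at 264 h, 20.8 kb for the 3177 called lower and 198 kb for the 136 higher by at least 2-fold. The quartiles overlapped, at 31.7 and 155.9 kb for genes called higher and 9.9 and 42.8 kb for genes called lower. Among the leading rises, RPTOR spans 421.6 kb (chromosome 17, 78518619 to 78940171), CUX1 468.3 kb, HDAC4 353.5 kb, MAD1L1 417.4 kb and CAMK1D 486.1 kb. CLC, EPX and PRG3, which rose by more than RPTOR, are short and span 6.8, 12.4 and 4.4 kb. The leading falls SLAMF9 and RD3 span 2.8 kb and 16.4 kb, and ADAMTS4 and CDH24 span 14.7 and 10.5 kb. TRIM29, SLC7A8, ACE and IL1RL1 also fell and lie above the median of all, at 74.3, 58.4, 44.8 and 40.5 kb.

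Of 399 coding genes over 300 kb, 58.9% were called higher and 7.02% lower between the Aza times, with a median log2 change of 0.44. That median was 0.42, 0.47, 0.45 and 0.44 in the 4 clones. Of 2489 genes up to 10 kb, 9.76% were called higher and 32.2% lower (median -0.09). The longest group had stood below DMSO at 72 h by a median of -0.44 and stood at -0.04 at 264 h, and its median change between the DMSO times was 0.06. The 106 reverted coding genes that had been lower in Aza had a median span of 222.7 kb, against 23.4 kb for the 214 that had been higher, 22.5 kb for 34 kept higher genes and 19.8 kb for 9 late genes. Genes are not replicates and overlapping genes share reads, so these medians are given as a description.

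**Figure D5:**
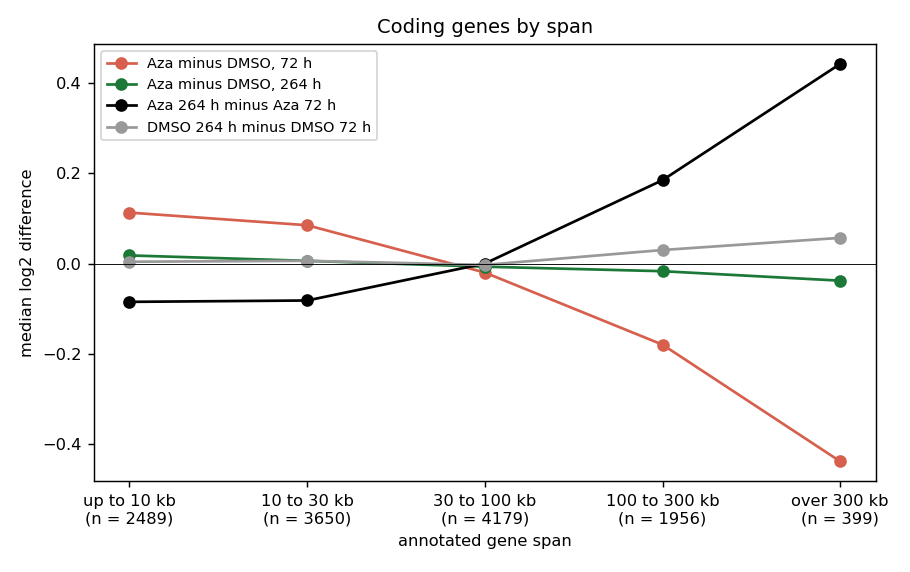
Median log2 difference of coding genes in 5 groups of annotated span (up to 10 kb to over 300 kb, with the number of genes) for Aza against DMSO at both times and for 264 h against 72 h in Aza and in DMSO. Genes over 300 kb lie at -0.44 against DMSO at 72 h and at -0.04 at 264 h.

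The change from 72 h to 264 h differed between genotypes in 6 of 16127 genes (0.0372%), all with a lower change in KO, and in 2 of them, AQP1 and TNXB, by at least 2-fold (0.0124%). An unadjusted p under 0.05 was reached by 953 genes. DESeq2 called 1 gene, and edgeR called 0 without A12 and 105 without F4, fits in which a genotype has 1 clone that is assumed to vary like the others. EPOR, the erythropoietin receptor gene, went from 18.2 and 25.0 to 15.9 and 18.4 CPM in the KO clones and from 22.2 and 34.2 to 31.9 and 42.3 CPM in the WT clones. The KO minus WT change was log2 -0.74 (adjusted p = 0.0247). AQP1 fell by log2 2.42 and 2.29 in KO and by 0.78 and 1.31 in WT, a difference of -1.35 (adjusted p = 0.011). CAPRIN2, an RNA-binding protein gene, changed by -0.14 and -0.38 in KO and by 0.55 and 0.45 in WT (adjusted p = 0.00742). IGFBP5, TNXB and AKR1C1 had differences of -0.91, -1.82 and -0.55. None of the 10 hemoglobin genes was among the 6, though their median KO minus WT change was -0.46, against 0.00 over all genes tested.

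Time in culture alone changed fewer genes. Between 72 h and 264 h in DMSO, 1362 of 17395 genes passed the test (7.83%, split into 3.87% with more and 3.96% with less RNA at 264 h), and 29 of them by at least 2-fold (0.167%), with 3 libraries at 72 h. This count was 729, 424 and 694 without A12, A7 and C4, 115 without the clone term, and 1 with the failed library included. RPTOR, CUX1 and HDAC4 rose in DMSO by log2 0.23, 0.22 and 0.28, against 2.37, 1.92 and 1.97 in Aza. CLC, EPX and the globin genes were not called between DMSO times.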

How the data were processed

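RNA was measured by poly(A) sequencing (a stranded TruSeq kit). The values are raw counts per gene as deposited: per the file headers, the authors counted read pairs over GENCODE release 19 exons with featureCounts 1.6.2. The submitters' processing notes name cutadapt, FastQC, STAR 2.6.1d, DESeq2 and hg19. The header's command sets no strand option.

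From these counts, CPM used TMM library sizes in edgeR 4.0.16 (R 4.3.3). Log2 values per library use a prior count of 2, and low genes were removed with filterByExpr. Tests are edgeR's quasi-likelihood test with Benjamini-Hochberg adjusted p over all genes tested, checked on simulated data. The pairing comes from the clone labels: the difference between 2 clones at 72 h and at 264 h correlated at 0.552 (KO) and 0.587 (WT) over 3000 genes. No 2 replicates agreed within sampling noise. Alternatives were DESeq2 1.42.0, other size factors and filters, no clone term, each clone left out, the failed library and batch 2. Gene symbols matched 51996 IDs in a table of names and 342 in GENCODE release 29, and 5435 kept their ID.

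The comparison, the 29 gene lists and the named genes were chosen with earlier results of these data known. Of 579 list entries, 572 matched. One list, of 20 genes chosen on these samples, is no independent evidence: 6 rose and 11 fell. Named genes were the 12 largest rises and falls with at least 5 CPM, up to 6 of each class and direction, up to 4 called members of each list, globins, methyltransferases and the 6 genotype genes. TCN1, ALDH3B1, EML2-AS1, PRG2, IL5RA, CCR3, TPSB2, FCER1A, GATA2, ANK1, KLF1, TAL1, SPTB, ADD2, DMTN, ENPP3, PRTG, GATA1, MPO, CSF3R, ITGAM and TUBB1 were added after their values were seen.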

Additional observations from a re-analysis of the deposited data

Results flagged for a closer look

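Among 187 genes checked, one clone stood apart from the other 3 in its log2 change from 72 h to 264 h for 13 genes, by Dixon's ratio at its 95% limit for 4 values; chance flags about 1 in 20 such groups. Clone F4 changed least for PRG3 (1.36, others 2.79 to 3.02) and fell most for NFE2 (-0.80, others -0.61 to -0.58) and for the unnamed gene ENSG00000227921.1 (-0.98, others -0.02 to 0.07). Clone A12 fell most for GYPB (-2.43, others -1.22 to -1.09) and for the antisense gene ENSG00000269600 (-2.33, others -0.15 to 0.27). Clone A7 stood apart for BTG2 (0.38, others -0.43 to -0.41), HES2 (0.91, others -0.36 to -0.15), MAD1L1 (1.6, others 1.92 to 1.96) and SQLE (-0.56, others -0.77 to -0.74). Clone C4 stood apart for HDC (-2.06, others -0.92 to -0.78), RD3 (-3.41, others -2.66 to -2.51), CDC6 (-0.77, others -0.64 to -0.62) and BBC3 (-0.37, others -0.80 to -0.75).

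The change differed between genotypes, by the test of the time-by-genotype term, for 6 genes, with KO minus WT log2 changes of -0.77 for CAPRIN2, -0.55 for AKR1C1, -1.35 for AQP1, -0.91 for IGFBP5, -0.74 for EPOR and -1.82 for TNXB (adjusted p 0.00742 to 0.0266). The cause was not tested.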

How the results depend on the processing

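The paired fit, with clone as a replicate block, was the reported one. Without the replicate block, edgeR called 4204 genes between the Aza times, 4357 for Aza against DMSO at 72 h, 11 at 264 h, 115 between the DMSO times and 1914 for the change of the difference. With the failed library added, the last 4 counts were 3862, 74, 1 and 1308. For the genotype term DESeq2 called 1 and a fit with no filter 55. Leaving out 1 clone gave 5520 to 6459 genes between the Aza times, 0 to 105 for the genotype term, 5605 to 6544 at 72 h, 264 to 661 at 264 h, 424 to 991 between the DMSO times and 3286 to 3771 for the change of the difference. Classes then held 359 to 409 reverted, 35 to 47 partly reverted, 25 to 35 kept, 272 to 322 unresolved and 5 to 11 late genes. Membership changed more than these counts: of the 448 reverted genes, 355, 294, 314 and 316 were reverted again without F4, A12, A7 and C4. At a 1.5-fold threshold the classes held 1118, 128, 86, 616 and 27 genes. Of the 72 h difference chosen in WT, 7.48% was left in A12 for higher and 5.77% for lower genes, and 7.52% and 7.62% at 1.5-fold, an alternative added after the data were seen. No named gene called between the Aza times changed sign under DESeq2 or without any clone. Named genes with no call there did: leaving out 1 clone gave log2 changes of -0.006 to 0.314 for CAPRIN2, -0.079 to 0.255 for EPOR, -0.408 to 0.12 for SELENBP1, -0.032 to 0.269 for ALDH3B1, -0.215 to 0.151 for CALB1, -0.237 to 0.318 for CD36, -0.617 to 0.105 for CTSE, -0.372 to 0.004 for ENPP3, -0.341 to 0.529 for ENSG00000161570.4, -0.052 to 0.529 for ENSG00000226281, -0.407 to 0.374 for EVPL, -0.33 to 0.396 for HES2, -0.196 to 0.381 for HSH2D, -0.043 to 0.145 for PRG2, -0.203 to 0.17 for SPTB and -0.448 to 0.109 for YPEL4. DESeq2 gave 0.126 for ENSG00000161570.4 and -0.026 for SPTB. The values that changed sign were not called. The cause of these shifts was not tested. Genes near 0.1 CPM rest on a few counts, and the floor covers counting error only. The SEs come from the quasi-likelihood fit and also hold variation across clones and cultures.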
